A study of Homo sapiens with 6 samples.

Results

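*GDF15*, *INHBE*, *STC2*, *ADM2* and *FGF21* encode secreted proteins that cells release into their surroundings, and all 5 were taken by symbol from the 17177 genes of the deposited expression table. The genes were selected on results of the same comparison that is described here, PP against PBS, so their differences between the groups are a description and carry no test. The study asked what pyrvinium pamoate (PP), a small molecule used there as an inhibitor of the RNA-binding protein ELAVL3, did to the transcriptome of neuroendocrine prostate cancer cells. RNA of NCI-H660, an established human cell line of neuroendocrine prostate cancer with the genotype given as WT, was sequenced at day 3. The cells had received either PBS, the control (3 libraries), or PP (3 libraries), and the PP dose for these cells is not given in the sources used here. No label says whether the 3 libraries of a group came from separate cultures, and the study's own text speaks of independent samples beside its plots while its methods give fewer libraries per group than the labels. Hence SD, SE and p-values measure the spread between these libraries, which may be technical, and a single cell line stands for the tumor type.

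These 5 hormones are best known as signals of a cell under stress. When translation, protein folding or mitochondrial function is disturbed, kinases of the integrated stress response phosphorylate the initiation factor eIF2, translation of the transcription factor ATF4 goes up, and ATF4 with partners of the C/EBP family drives genes through CARE sites, the C/EBP-ATF response elements. GDF15 lowers appetite through a hindbrain receptor, FGF21 and activin E, the product of *INHBE*, are known mainly from liver, STC2 inhibits the protease PAPP-A that releases insulin-like growth factors, and ADM2 is a vasoactive peptide of the calcitonin family.

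Levels are in FPKM, which divide the fragments of a gene by its length and by the depth of the library, so they can be set side by side between genes. Between 29064253 and 32481171 counts per library were recovered from the steps of the FPKM values, a spread of 11.8% between the lowest and the highest total. Differences were taken on the log2(FPKM + 1) scale over 11726 genes whose mean over the 6 libraries reached 1 FPKM, which understates the change of low genes. The neuroendocrine label was borne out by the 5 markers reported (*CHGA*, *SYP*, *NCAM1*, *ENO2* and *INSM1*), each at 1 FPKM or above in all 6 libraries. Their summed level was 169.7 to 180.1 FPKM with PBS and 139.7 to 153.7 FPKM with PP, and the part of this difference in the results below was not tested. In bulk RNA, fewer cells of a type and less RNA per cell cannot be told apart. Among markers of other cells, the sums over 6 listed hepatocyte genes were 0.854 to 1.78 FPKM with PBS and 0.433 to 0.618 FPKM with PP, with *ALB* at 0 or 1 count, and those of the 6 stromal, 5 immune and 4 endothelial genes stayed below 5 FPKM in every library.

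Of the 4 hormone genes with a promoter window, only *FGF21* held a match to the CARE core in it. RefSeq promoter windows of 300 bases on GRCh38.p14, from 250 bases before to 50 after the start site, existed for *GDF15*, *STC2*, *ADM2* and *FGF21*. *INHBE* had no window and was not searched. The core, TGATGNAA, was searched on both strands and occurred in 3.62% of all 35116 windows. The stretch of the *FGF21* promoter is printed because ATF4 is known to act through such elements and because this gene had the lowest level of the 5. Capitals mark the match, which lies on the reverse strand from base -54 to base -47 relative to the start.

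*FGF21* promoter, chr19:48755440-48755507, + strand: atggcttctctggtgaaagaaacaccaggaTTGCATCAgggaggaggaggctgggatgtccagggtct

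None of the other 3 windows held these letters, and none of the 4 held the cAMP response element TGACGTCA (1.85% of all windows), the AP-1 site TGANTCA (7.71%) or the endoplasmic reticulum stress element, read as CCAAT and CCACG 9 bases apart (0.0769%). A match is a description of letters in this window and no evidence of binding. The 250 bases before the start also differed in composition: that of *ADM2* was 78.8% G and C with 29 CpG, that of *FGF21* 60.0% with 0 CpG, and the medians of all windows were 58.0% and 11 CpG. The windows of *STC2* and *GDF15* had 63.6% and 58.4% G and C with 22 and 9 CpG.

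All 5 hormone genes were higher in each PP library than in each PBS library, by 2.08-fold for *STC2* to 6.98-fold for *INHBE*. *GDF15* was by far the most abundant in both groups, and *INHBE* moved from the third to the second place in the order of levels. This is what the genes were chosen for, and nothing is read from the counts that follow. The filter on low values was passed by 4 of the 5, all but *FGF21*, and these 4 were past the cutoff of the study's methods (P under 0.001 in limma and a log2 difference above 1), as were 2.24% of all tested genes in that direction and 2.93% in the other. Non-overlap of the 3 PP above the 3 PBS libraries, which all 5 genes showed, was found in 39.5% of all tested genes.

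*GDF15* lies on chromosome 19 from 18485541 to 18499986 (GRCh37, + strand) and encodes a distant member of the TGF-β family that circulates at raised levels in many diseases. Its level was 144, 147 and 148 FPKM in PBS replicates 1, 2 and 3, and 409, 404 and 378 FPKM in PP replicates 1, 2 and 3. The lowest PP library thus stood well above the highest PBS library. The means were 146 ± 2.08 and 397 ± 16.3 FPKM (SD, n = 3), a ratio of 2.72 (SE 0.0684) and a log2 difference of 1.43 (SE 0.036). The PBS libraries held 7413 to 7927 counts of the gene and the PP libraries 20979 to 21571, so that counting error was small. Among the 11726 genes tested, *GDF15* went from the place 321 in level with PBS to the place 60 with PP, and in the order of differences it had the place 85. A microRNA gene, *MIR3189*, lies within its span on the same strand over 73 bases, and whether it added to these counts was not tested.

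*INHBE*, on chromosome 12 from 57846106 to 57853063 (GRCh37, + strand), encodes the βE chain of activin. With PBS it measured 10.8, 11.1 and 11.5 FPKM in replicates 1, 2 and 3, and with PP 79.0, 79.8 and 74.6 FPKM. The groups were far apart and both were tight. The means were 11.2 ± 0.369 and 77.8 ± 2.83 FPKM (SD, n = 3), a ratio of 6.98 (SE 0.198) and a log2 difference of 2.70 (SE 0.043), which had the place 5 among all tested genes. In level it went from the place 5729, near the middle of the table, to the place 685. The PBS counts of 804 to 886 and the PP counts of 5935 to 6013 leave little room for counting error. A long noncoding RNA gene on the opposite strand overlaps *INHBE* over 1685 bases, and whether the counting used strand is not given in the sources used here.

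*STC2*, on chromosome 5 from 172741726 to 172755450 (GRCh37, - strand), encodes stanniocalcin 2, a glycoprotein. It measured 28.6, 26.8 and 28.5 FPKM in PBS replicates 1, 2 and 3, and 58.7, 57.9 and 58.1 FPKM in PP replicates 1, 2 and 3. Each PP library thus stood at about the same level, and PBS replicate 2 was the lowest of its group. The means were 28.0 ± 1.04 and 58.2 ± 0.436 FPKM (SD, n = 3), a ratio of 2.08 (SE 0.0455) and a log2 difference of 1.03 (SE 0.038). Its counts were 3338 to 3790 with PBS and 7440 to 8103 with PP. This difference lies close to the log2 cutoff of 1, and with FPKM scaled to the upper quartile of each library it was 0.97, below it.

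*ADM2*, on chromosome 22 from 50919972 to 50924869 (GRCh37, + strand), encodes adrenomedullin 2, also called intermedin. The PBS libraries held 2.18, 2.21 and 2.10 FPKM in replicates 1, 2 and 3, and the PP libraries 6.18, 6.99 and 7.08 FPKM. The groups did not overlap, and PP replicate 1 lay below the other PP libraries. The means were 2.16 ± 0.0584 and 6.75 ± 0.50 FPKM (SD, n = 3), a ratio of 3.12 (SE 0.142), from 273 to 284 and from 799 to 978 counts. At such levels the added 1 in the logarithm weighs on the difference, which was 1.29 (SE 0.064) as fitted and 1.60 with a pseudocount of 0.1. *SBF1*, a phosphatase-like gene on the opposite strand, overlaps *ADM2* over 2381 bases and measured 18.9 ± 1.33 and 25.3 ± 2.60 FPKM (SD, n = 3), and without a stated strand setting reads over this stretch cannot be told apart between the 2 genes.

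*FGF21*, on chromosome 19 from 49258781 to 49261590 (GRCh37, + strand), encodes an endocrine fibroblast growth factor. It was near the limit of detection: PBS replicates 1, 2 and 3 had 2, 6 and 7 counts (0.0479, 0.152 and 0.166 FPKM), and PP replicates 1, 2 and 3 had 20, 26 and 33 counts (0.483, 0.639 and 0.748 FPKM). All PP libraries were above all PBS libraries, but the 95% exact Poisson interval of PBS replicate 3 (2.81 to 14.4 counts) met that of PP replicate 1 (12.2 to 30.9 counts). Summed over libraries, 15 counts stood against 79, a ratio per total count of 5.15 with a 95% exact interval of 2.94 to 9.63. Such intervals cover counting error only. The means were 0.122 ± 0.0646 and 0.623 ± 0.133 FPKM (SD, n = 3), and the log2 difference, from a fit over 13771 genes whose mean reached 0.1 FPKM, was 0.53 (SE 0.079). The choice of pseudocount sets this value, which was 1.73 with 0.1 in place of 1.

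With PBS the order of levels was *GDF15*, *STC2*, *INHBE*, *ADM2*, *FGF21*, and with PP it was *GDF15*, *INHBE*, *STC2*, *ADM2*, *FGF21*. No neighbours in either order overlapped in their 3 libraries. Both groups were set against the same 16909 genes, those above 0 in any of the 6 libraries. *GDF15* stood above 98.1% of them with PBS and 99.6% with PP, *STC2* above 85.3% and 94.0%, and *INHBE* above 66.1% and 95.9%. *ADM2* went from 37.4% to 54.5%, and *FGF21* was in the lower part, at 19.6% and 28.5%. Among the 11726 genes tested, *ADM2* had the place 10593 in level with PBS and the place 7691 with PP. The hormone genes together made up 185 to 190 FPKM with PBS and 519 to 553 FPKM with PP, or 0.0581% to 0.0595% and 0.170% to 0.179% of all FPKM of a library. Of that sum *GDF15* held 77.6% to 78.5% with PBS and 72.9% to 73.9% with PP, while *INHBE* held 5.82% to 6.07% and 14.3% to 14.5%.

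Ratios within a library show how the hormones stood to each other. *GDF15* was 13.1 ± 0.271 times as abundant as *INHBE* with PBS and 5.10 ± 0.0614 times with PP (SD, n = 3). *STC2* stood at 2.51 ± 0.129 times the level of *INHBE* with PBS and at 0.749 ± 0.0277 times with PP, so the order of these genes turned in all 3 libraries. The ratio of *INHBE* to *ADM2* went the other way, from 5.17 ± 0.290 to 11.6 ± 1.14. Between *GDF15* and *STC2* the ratio was 5.23 ± 0.240 and 6.81 ± 0.266, a smaller shift with no overlap of the libraries. The ratio of *GDF15* to *ADM2*, 67.7 ± 2.38 and 59.1 ± 6.49, overlapped between the groups: PP replicate 1 had 66.2 and PBS replicate 1 had 66.0. The ratio of *STC2* to *ADM2* was 12.9 ± 0.763 and 8.66 ± 0.733. These ratios come from the values that chose the genes and are given with no test.

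**Figure D1:**
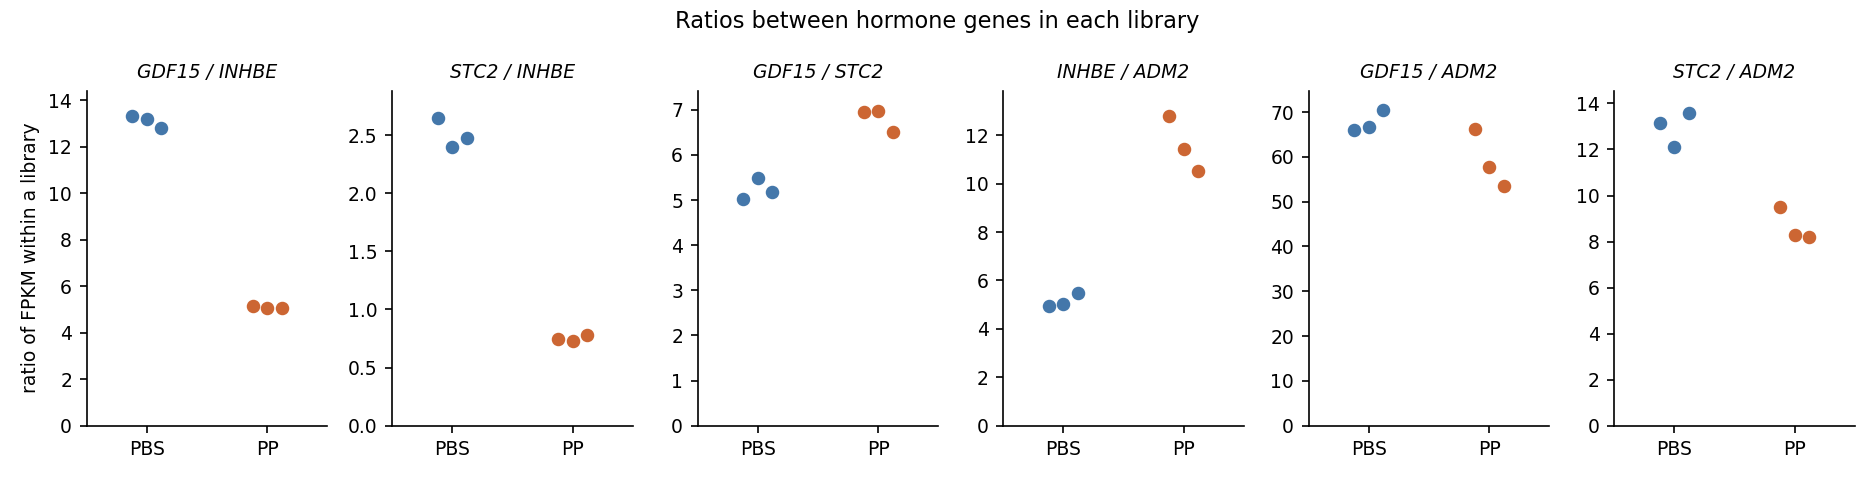
Ratio of the FPKM of a pair of hormone genes within each library (y axis, linear from 0, one scale per pair) for the 3 PBS (blue) and 3 PP (orange) libraries. The ratios to *INHBE* are lower with PP (*GDF15* 13.1 to 5.10 and *STC2* 2.51 to 0.749 on average), that of *INHBE* to *ADM2* is higher, and that of *GDF15* to *ADM2* overlaps between the groups.

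The libraries of a group differed most for *FGF21*, the gene with the fewest counts. The coefficient of variation was 1.43% with PBS and 4.12% with PP for *GDF15*, 3.31% and 3.64% for *INHBE*, 3.70% and 0.748% for *STC2*, 2.70% and 7.40% for *ADM2*, and 52.9% and 21.3% for *FGF21*. The 5 genes did not all deviate together, though some pairs did. PP replicate 3 was the lowest of its group for *GDF15* and *INHBE*, deviating by -4.71% and -4.16% from the group mean, and the highest for *ADM2* and *FGF21*, deviating by 4.93% and 19.9%. *STC2* in that library deviated by -0.211%.

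The genes closest to each hormone gene in pattern were found as those with the smallest root mean square difference in log2(FPKM + 1), centred on the PBS mean, over the 6 libraries. For *GDF15* they were *GADD45A* (0.0239), *SLC3A2* (0.0328) and *AMOTL2* (0.0392). *GADD45A*, a gene known to respond to DNA damage and other stress, had 102 ± 2.26 FPKM with PBS and 280 ± 7.94 FPKM with PP (SD, n = 3). *SLC3A2*, the heavy chain of several amino acid transporters, had 157 ± 2.38 and 428 ± 28.4 FPKM.

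*INHBE* had one close gene, *ATF3* (0.0354), a stress-induced transcription factor, at 19.1 ± 0.838 and 132 ± 3.63 FPKM (SD, n = 3). The next, the ubiquitin ligase *NEDD4* (0.107) and the transcription factor *MYC* (0.108), were further away. For *STC2* the closest were *LMO4* (0.0288), *KRT80* (0.0309) and *EIF2AK3* (0.0335), the last being PERK, the eIF2 kinase of the endoplasmic reticulum, at 10.9 ± 0.302 and 23.0 ± 0.336 FPKM. *ADM2* was closest to *TUBE1* (0.0224), *ARNTL* (0.0338) and *CCPG1* (0.0470). The genes found for *FGF21* were *ZNF506* (0.0424), *ARSK* (0.0482) and *TRMT13* (0.0514), but its centred values rest on 2 to 33 counts. This likeness is over 6 libraries in 2 groups, and any gene with the same difference and little spread will be close.

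**Figure D2:**
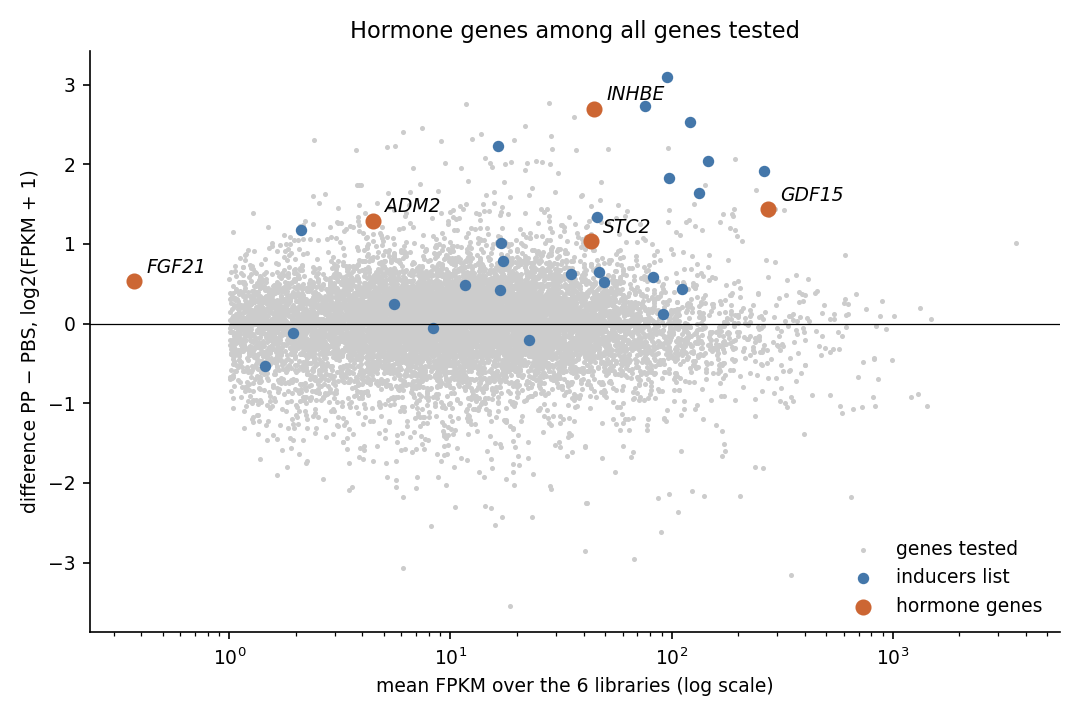
Difference PP minus PBS in log2(FPKM + 1) (y axis) against the mean FPKM over the 6 libraries (x axis, log scale) for the 11726 genes tested (grey), the list of stress regulators labelled inducers (blue) and the 5 hormone genes (orange), of which *FGF21* is below the filter. *INHBE* at 2.70 lies at the upper edge of the cloud, and *GDF15*, *ADM2* and *STC2* lie between 1.03 and 1.43.

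Listed regulators of stress transcription were mostly higher with PP. The list, labelled inducers, holds inducers of these hormones but also genes that act against the response, such as *TRIB3*. Like the other lists it was chosen with earlier results of these data known, so its counts are a description. Of 25 listed regulators of stress transcription, all tested, 21 rose and 2 fell by adjusted p in limma, with a median log2 difference of 0.65. Among all tested genes 38.1% rose and 34.4% fell, with a median of 0.022. In this and the following lists every gene named as risen or fallen had no overlap between the 3 PP and the 3 PBS libraries. The largest rises of the list were those of *TRIB3*, a pseudokinase that inhibits ATF4 activity (19.1 ± 0.545 to 171 ± 8.24 FPKM, log2 difference 3.09, limma adjusted p = 2.6e-11), *ATF3* (2.73, adjusted p = 3.5e-11), *PPP1R15A*, a subunit of the eIF2 phosphatase (2.53, adjusted p = 2.6e-11), and *ERN1*, the IRE1 sensor of unfolded proteins (2.23, adjusted p = 1.3e-10). *ATF4* itself rose by 0.65 (36.2 ± 1.82 to 57.2 ± 2.27 FPKM, limma adjusted p = 6.8e-07), less than any of the 4 tested hormone genes differed, and *DDIT3*, which encodes CHOP, rose by 1.92 (limma adjusted p = 1.1e-10). These last genes were named after their values were seen. *EGR1* fell by 0.53 (limma adjusted p = 0.00087) and *EIF2AK2*, the eIF2 kinase PKR, fell by 0.20 (limma adjusted p = 0.0019).

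The family relatives of the hormones went in both directions. Of 53 listed relatives 40 had a row in the table, and 14 were tested. Of these 5 rose and 6 fell (35.7% and 42.9%, beside 38.1% and 34.4% of all tested genes), with a median log2 difference of -0.08. For *INHBE* the closest relatives were at or near the floor: *INHBA* and *INHBB* had at most 1 count in any library, and *INHBC* had 8 to 68 counts. For *STC2*, the paralog *STC1* had 14 to 52 counts. For *ADM2*, *ADM* rose from 5.44 ± 0.162 to 8.97 ± 0.0705 FPKM (0.63, limma adjusted p = 1.2e-06), and *CALCB*, the gene of the β form of calcitonin gene-related peptide, rose from 8.70 ± 1.13 to 48.5 ± 0.758 FPKM (2.36, limma adjusted p = 1.6e-09). Reads of *CALCB* and its near copy *CALCA* (0.391 and 0.726 FPKM) could have been split in counting. For *GDF15*, the relatives *TGFB1* (fell by 1.59, limma adjusted p = 2.5e-08), *BMP8A* (fell by 1.54, adjusted p = 1.1e-08, a near copy of *BMP8B*), *GDF11* (fell by 1.24, adjusted p = 3.7e-07) and *BMP3* (fell by 1.0, adjusted p = 1.5e-06) were lower, and *BMP6* (0.52, adjusted p = 0.00011) and *BMP2* (0.44, adjusted p = 0.00068) were higher. *MSTN*, which like *GDF11* belongs to the myostatin branch of the family, had at most 6 counts. For *FGF21*, the other endocrine factors *FGF19* and *FGF23* were not analysed here.

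The list of receptors held those of the hormones and of the wider TGF-β and FGF families. Of its 27 genes 24 had a row, 12 were tested, 2 rose and 6 fell, beside 38.1% and 34.4% of all tested genes, with a median log2 difference of -0.19. *RET*, the co-receptor of *GDF15*, fell from 34.6 ± 0.627 to 10.1 ± 0.609 FPKM (fell by 1.69, limma adjusted p = 9.9e-10), while its ligand-binding partner *GFRAL* was not analysed here. For activin E, the type I receptor *ACVR1C* was at 0.477 ± 0.0572 and 0.960 ± 0.0375 FPKM, below the filter. The type II receptor *ACVR2A* rose by 0.28 (limma adjusted p = 0.0090), and *ACVR2B*, at 4.46 ± 0.158 and 4.59 ± 0.111 FPKM, differed by 0.03 (limma adjusted p = 0.59). *ACVR1*, a type I receptor of the wider family, rose by 0.43 (limma adjusted p = 0.0020).

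The peptide ADM2 acts on the calcitonin receptor-like receptor *CALCRL* together with a RAMP protein. *CALCRL* had at most 6 counts in any library. Its partners *RAMP1* (33.3 ± 1.31 to 11.3 ± 0.553 FPKM, fell by 1.48, limma adjusted p = 2.3e-09) and *RAMP2* (fell by 0.87, limma adjusted p = 0.00019) were lower with PP, and *RAMP3* was not analysed here. FGF21 needs β-Klotho, *KLB*, not analysed here, with an FGF receptor. *FGFR1* was below the filter at 0.690 ± 0.0637 and 0.626 ± 0.107 FPKM, as was *FGFR4* at 0.912 ± 0.119 and 0.934 ± 0.115 FPKM. *FGFR2* differed by 0.07 (limma adjusted p = 0.32), and *FGFR3* fell by 0.71 (limma adjusted p = 1.3e-05).

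Before secretion GDF15, activin E, ADM2 and their relatives are cut by proprotein convertases, and antagonists bind some of them outside the cell. Of 20 listed genes of maturation and antagonism 12 were tested, with a median log2 difference of -0.20. Among them 1 rose and 8 fell (8.33% and 66.7%, beside 38.1% and 34.4% of all tested genes). Without PBS replicate 3, 5 of them fell. The convertase *PCSK2* fell from 14.5 ± 0.101 to 3.07 ± 0.284 FPKM (fell by 1.93, limma adjusted p = 1.5e-09), and carboxypeptidase E, *CPE*, fell by 0.73 (limma adjusted p = 9.1e-08). *FSTL1* fell by 0.63 (limma adjusted p = 3.6e-05) and *PCSK1* by 0.30 (limma adjusted p = 0.00031). The BMP antagonist *GREM1* rose from 1.01 ± 0.00781 to 3.77 ± 0.245 FPKM (1.25, limma adjusted p = 7.1e-08). *FURIN*, the general convertase, and *PAM*, the enzyme that amidates peptides such as ADM2, stayed abundant at 11.0 ± 0.197 and 26.1 ± 0.158 FPKM with PP, and fell by 0.12 and 0.19 (limma adjusted p = 0.026 and 0.00090). Both were named after their values were seen.

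STC2 acts on the insulin-like growth factor axis outside the cell, where it blocks the cleavage of IGFBP4 by PAPP-A. In NCI-H660 *PAPPA* had 15 to 23 counts with PBS and 42 to 72 with PP (0.0597 and 0.161 FPKM), and *PAPPA2* had at most 1 count. The substrate *IGFBP4* fell from 4.86 ± 0.0998 to 3.58 ± 0.499 FPKM (fell by 0.36, limma adjusted p = 0.0020). Of 12 listed genes of the axis 6 were tested, with a median log2 difference of -0.98. In limma 0 rose and 5 fell, beside 38.1% and 34.4% of all tested genes. All 6 differences were below 0, and limma-voom on the recovered counts likewise called 0 higher. Beside *IGFBP4* these were *IGFBP5* (fell by 1.52, limma adjusted p = 4.0e-10), *IGFBP6* (fell by 1.41, adjusted p = 7.5e-06), *IGFBP2* (fell by 1.37, adjusted p = 1.0e-08) and the receptor *IGF1R* (fell by 0.58, adjusted p = 2.1e-05).

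Activin E belongs to the TGF-β family, whose signals run mostly through SMAD proteins. GDF15 is a distant member of it with RET as co-receptor. Whether the genes of this list follow either hormone was not tested. Of 18 listed SMAD pathway and target genes 17 were tested, with a median log2 difference of -0.27. In this list 5 rose and 9 fell (29.4% and 52.9%, beside 38.1% and 34.4% of all tested genes). The inhibitor of differentiation genes, targets of BMP signals, went in both directions: *ID2* (333 ± 12.1 to 73.1 ± 1.63 FPKM) fell by 2.17 (limma adjusted p = 5.3e-11), *ID1* by 1.60 (limma adjusted p = 8.5e-10) and *ID3* by 0.82 (limma adjusted p = 5.5e-09), whereas *ID4* rose by 0.79 (limma adjusted p = 5.6e-08). The inhibitory *SMAD6* fell by 0.82 (limma adjusted p = 2.1e-06), and *SMAD4* and *SMAD1* rose by 0.58 and 0.54 (limma adjusted p = 8.6e-07 and 6.5e-06).

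Other secreted proteins did not share one direction with the hormones. Of 27 listed cytokines and growth factors known from stressed cells 17 were tested, with a median log2 difference of 0.17. Of the tested genes 9 rose and 5 fell (52.9% and 29.4%, beside 38.1% and 34.4% of all tested genes). *AREG* (2.75, limma adjusted p = 5.1e-09), *LCN2* (1.38, adjusted p = 6.1e-09), *VEGFA* (1.10, adjusted p = 4.5e-10) and *HBEGF* (0.46, adjusted p = 0.00077) rose, and *ANGPTL4* (fell by 1.10, adjusted p = 5.6e-07), *GRN* (fell by 1.08, adjusted p = 7.1e-09), *MIF* (fell by 0.98, adjusted p = 6.9e-09) and *PTHLH* (fell by 0.52, adjusted p = 8.6e-05) fell. *VEGFA*, at 126 ± 0.888 and 270 ± 1.82 FPKM, and *LCN2*, at 93.9 ± 6.16 and 246 ± 12.3 FPKM, were in the same range of level as *GDF15*. Of 29 peptide hormones and granins of neuroendocrine cells 23 had a row, and 7 were tested. Here 2 rose (*SCG2* by 0.66 and *UCN* by 0.46, limma adjusted p = 1.0e-05 and 0.0045) and 4 fell, beside the same shares of all tested genes. The 4 were *CHGA* (fell by 0.78, limma adjusted p = 8.9e-08), *NPY* (fell by 0.38, adjusted p = 0.00017), *CHGB* (fell by 0.32, adjusted p = 0.00011) and *VGF* (fell by 0.28, adjusted p = 0.00026), and the median of the list was -0.28.

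*GDF15*, *INHBE*, *STC2* and *ADM2* differed by more on the log2 scale than each tested neighbour on the chromosome, and *FGF21* did so on the scale of ratios of mean FPKM but not with the pseudocount of 1. Because the hormone genes were chosen on this same comparison, a larger difference than nearby genes is a description and no result about their location. The 3 nearest protein-coding genes with a row on each side of each hormone gene made 30 neighbours, of which 21 were tested. Among these 11 rose and 5 fell (52.4% and 23.8%, beside 38.1% and 34.4% of all tested genes), with a median log2 difference of 0.21. Around *GDF15*, *JUND* rose by 0.58, *LSM4*, *SSBP4* and *ISYNA1* fell by 0.62, 0.56 and 0.25, and the nearest gene with a tested value, *PGPEP1* at 4780 bases, differed by 0.08 (limma adjusted p = 0.33). Beside *INHBE*, its paralog *INHBC* ends 260 bases away and was low (0.170 and 0.345 FPKM). *GLI1*, a transcription factor of Hedgehog signalling that starts 504 bases from its other end, had 6 to 10 counts with PBS and 34 to 61 with PP. Its levels were 0.0596 ± 0.0211 and 0.403 ± 0.112 FPKM, below the filter, so it was not tested. As a ratio of mean FPKM, *GLI1* stood at 6.76, close to *INHBE* at 6.98. At 16164 bases, *MARS1*, the cytosolic methionyl-tRNA synthetase, rose by 0.69 (limma adjusted p = 1.3e-07).

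All 4 tested neighbours of *STC2* rose, by 0.21 (*BOD1*) to 0.68 (*CREBRF*, limma adjusted p = 1.9e-06), with *STC2* at 1.03 on the same scale. The neighbours of *ADM2* differed by -0.26 (*PPP6R2*) to 0.40 (*SBF1*, limma adjusted p = 0.00069), and *MIOX*, which starts 343 bases after it, differed by 0.17 (limma adjusted p = 0.15). Near *FGF21* (0.53 on this scale), *FUT1*, 133 bases away, rose by 0.39 (limma adjusted p = 0.0017), *HSD17B14* rose by 0.79 (limma adjusted p = 1.5e-07), and *BCAT2* differed by -0.11 (limma adjusted p = 0.19). As ratios of mean FPKM, with no pseudocount, *FGF21* stood at 5.11, *HSD17B14* at 1.78, *FUT1* at 1.48 and *BCAT2* at 0.921, so the place of *FGF21* below *HSD17B14* rests on the pseudocount.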

How the data were processed

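The authors sequenced poly(A) RNA of NCI-H660 cells (3 PBS and 3 PP libraries, day 3) with a stranded kit, and the authors deposited one table of FPKM per gene and library. Per the labels, the tools were fastp, HISAT2 and HTSeq with GRCh38, no versions given. The study's methods name Bowtie, hg19, RSEM, Cufflinks for the FPKM and HTSeq-count for counts, so the aligner, build and annotation behind the FPKM are unsettled. The deposited FPKM were whole multiples of a step per gene and library for 17177 of 17177 genes (100%, tolerance 0.01 counts), which gave counts per gene. 268 genes were at 0 throughout.

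Log2(FPKM + 1) was fitted with limma 3.58.1 (R 4.3.3, empirical Bayes with a trend, two-sided, Benjamini-Hochberg adjustment, threshold 0.05) over the 11726 genes whose mean reached 1 FPKM, PP against PBS, with no covariate. The script was tested on simulated data. Samples were grouped by the titles and the treatment label. The hormone genes and the lists were chosen with earlier results of these data known. Named in a list were up to 4 genes past the threshold with the largest difference in each direction, and every known receptor, closest relative and PAPP-A gene of the hormones. Positions come from GENCODE 44 lifted to GRCh37, promoters from RefSeq on GRCh38.p14. Python 3.11.15, pandas 2.3.3, scipy 1.17.1 and matplotlib 3.10.9 did the rest. Alternatives were pseudocounts of 0.1 and 0.5, mean FPKM of at least 0.1 or 5 or no filter, 2 other scalings, limma without a trend, limma-voom on the recovered counts, a replicate block and leaving out each library. Some marker genes are not reported here.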

Additional observations from a re-analysis of the deposited data

How the results depend on the processing

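Depth limited *FGF21*, with at most 33 counts in a library, and the receptors and relatives below the filter. No difference of the 5 hormone genes changed sign under any alternative run. The log2 difference moved by more than 1 SD between replicates with upper-quartile scaling for *GDF15* (1.37), *INHBE* (2.64) and *STC2* (0.97, below the cutoff of 1). With a pseudocount of 0.1 it was 2.79 for *INHBE*, 1.60 for *ADM2* and 1.73 for *FGF21*, with 0.5 it was 2.75, 1.44 and 0.85, and with limma-voom on the recovered counts 2.80, 1.64 and 2.38, since a smaller pseudocount weighs less on low values. The other 35 values of the hormone genes, and all 30 with a library left out, moved by less. Among the 35, those under another filter, without the trend or with the replicate block could not move. These settings leave a gene's difference of group means as it is, so they say nothing about its stability. *ADM2* and *FGF21* have no value at a mean FPKM of at least 5. Over all tested genes limma-voom called 4515 genes higher and 4091 lower, against 4464 and 4032 as reported, and with upper-quartile scaling the balance turned, to 3811 higher and 4559 lower, with the median over all genes at -0.032 in place of 0.022.

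Of the counts per list, 8 changed by more than 1.5 times, each under another filter, which changes the genes tested. At a mean FPKM of at least 5, relatives higher were 2, receptors higher 0, maturation genes higher 0, IGF axis genes lower 3 and inducers lower 1. Receptors higher were 4 at a mean FPKM of at least 0.1 and 4 with no filter, and with no filter 1 gene of the IGF axis was higher. With each library left out in turn, maturation genes lower ranged from 5 to 8, the 5 without PBS replicate 3, and the cause was not tested. The other 172 counts, and 107 with a library left out, stayed within 1.5 times. Same-numbered libraries did not deviate together (correlations of deviations -0.21, -0.01 and -0.13, and 0 of 3 PBS libraries were closest to their own number). No effect shared by number was thus seen, which cannot exclude that same-numbered libraries were prepared together. With the replicate block, 4260 genes were higher and 3878 lower, and no list count left its range of 1.5 times. In this balanced design the block cannot change the differences of the hormone genes, which were as without it (1.43 for *GDF15*, 2.70 for *INHBE*, 1.03 for *STC2*, 1.29 for *ADM2* and 0.53 for *FGF21*).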
